A study of Caenorhabditis elegans with 12 samples.

Results

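The neuropeptide genes of *Caenorhabditis elegans* were taken as every gene whose WormBase symbol begins with *flp* (FMRFamide-like peptide) or *nlp* (neuropeptide-like protein) followed by a number. The rule gave 102 of the 46904 genes counted. Of these, 31 are *flp* genes, 63 are *nlp* genes outside the range *nlp-27* to *nlp-34*, and 8 are *nlp-27* to *nlp-34*, which are known as antimicrobial peptide genes of the epidermis and are described apart. Their transcripts were measured by RNA-seq of polyA RNA from whole young adult worms of 4 strains, with 3 libraries per strain.

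The *gsr-1a trxr-2* double mutant carries *gsr-1(syb266)* and *trxr-2(tm2047)*, both on chromosome III, and each single mutant carries one of these alleles. The *syb266* deletion takes out the first exon of *gsr-1*, so that the mitochondrial glutathione reductase GSR-1a is lost while the cytosolic isoform GSR-1b can still be made, and the strain is called *gsr-1a* here. The *tm2047* allele is a null of the mitochondrial thioredoxin reductase gene *trxr-2*. Wild type is the N2 strain, and all 4 strains were synchronized by bleaching and collected as young adults. The alleles act in every tissue and the RNA is from whole animals, so that a change in neurons and a change in the number or size of other tissues both enter the same value, and fewer cells of a type cannot be told apart from less RNA per cell.

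Neuropeptides are cut from longer precursors by proprotein convertases, trimmed by a carboxypeptidase, often amidated at their C-terminus, and released from dense core vesicles. They act mostly on G protein-coupled receptors of other neurons, muscle, gonad or gut. In *C. elegans*, FMRFamide-like peptides set locomotion, feeding, egg laying and sleep, and some carry signals of mitochondrial or oxidative stress between neurons and intestine. The *nlp* name is given to a mixed class that includes orcokinin-like, cholecystokinin-like and gonadotropin-releasing-hormone-like peptides as well as epidermal antimicrobial peptides. The sequences of the precursors are not used here.

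The libraries held between 12114187 and 19688212 counts in genes, and the 102 neuropeptide genes took between 0.0701% and 0.149% of them. The *trxr-2* gene had 1, 1 and 0 counts in the double mutant and 0, 1 and 1 in *trxr-2* worms, against 129, 218 and 236 in *gsr-1a* worms and 202, 240 and 264 in wild type, as the labels of the *trxr-2* allele require. The *gsr-1* count cannot check *syb266*, since the other exons remain. The study describes the libraries as biological replicates from independent experiments. The labels do not say whether libraries of the same number share an experiment.

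Replicate 1 of *trxr-2* and replicate 1 of wild type stood apart from the other 10 libraries. Yolk protein genes (*vit*) took 1.79% of the counts in *trxr-2* replicate 1 and 0.342% in wild-type replicate 1, against 3.57% to 6.78% in the others. The 10 oocyte markers summed to 4727 and 3983 CPM (the gene's counts scaled to a common library size, with library sizes adjusted by the TMM method) in these libraries, against 6590 to 8402 CPM in the others. Neuropeptide transcripts were high in the same libraries. Among the 95 neuropeptide genes with enough counts to test, replicate 1 was the highest of its strain for 64 in the double mutant, for 53 among *gsr-1a* libraries, for 85 among *trxr-2* libraries and for 75 in wild type. In *trxr-2* that is 89.5% of them, against 52.2% of all genes tested, and in wild type 78.9% against 43.7%. In the double mutant it is 67.37% against 37.64%, and in *gsr-1a* 55.79% against 42.01%. The share for neuropeptide genes was thus above that for all genes in each of the 4 strains, by the least in *gsr-1a*. These differences were not tested. The median log2 ratio of replicate 1 to the mean of the other replicates was 0.83 for *trxr-2*, 0.27 for the double mutant, 0.23 for *gsr-1a* and 0.45 for wild type. For pan-neuronal markers this median was 0.12 for the double mutant, 0.17 for *gsr-1a*, 0.03 for *trxr-2* and 0.03 for wild type. Body wall muscle markers summed to 3458 CPM in *trxr-2* replicate 1 and 1612 CPM in wild-type replicate 1, against 3639 to 6843 CPM in the others. The part of these yolk, oocyte and muscle differences in the neuropeptide values was not tested. Neuropeptide calls are given below with and without the replicates numbered 1, as are lost calls of the other genes named.

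**Figure D1:**
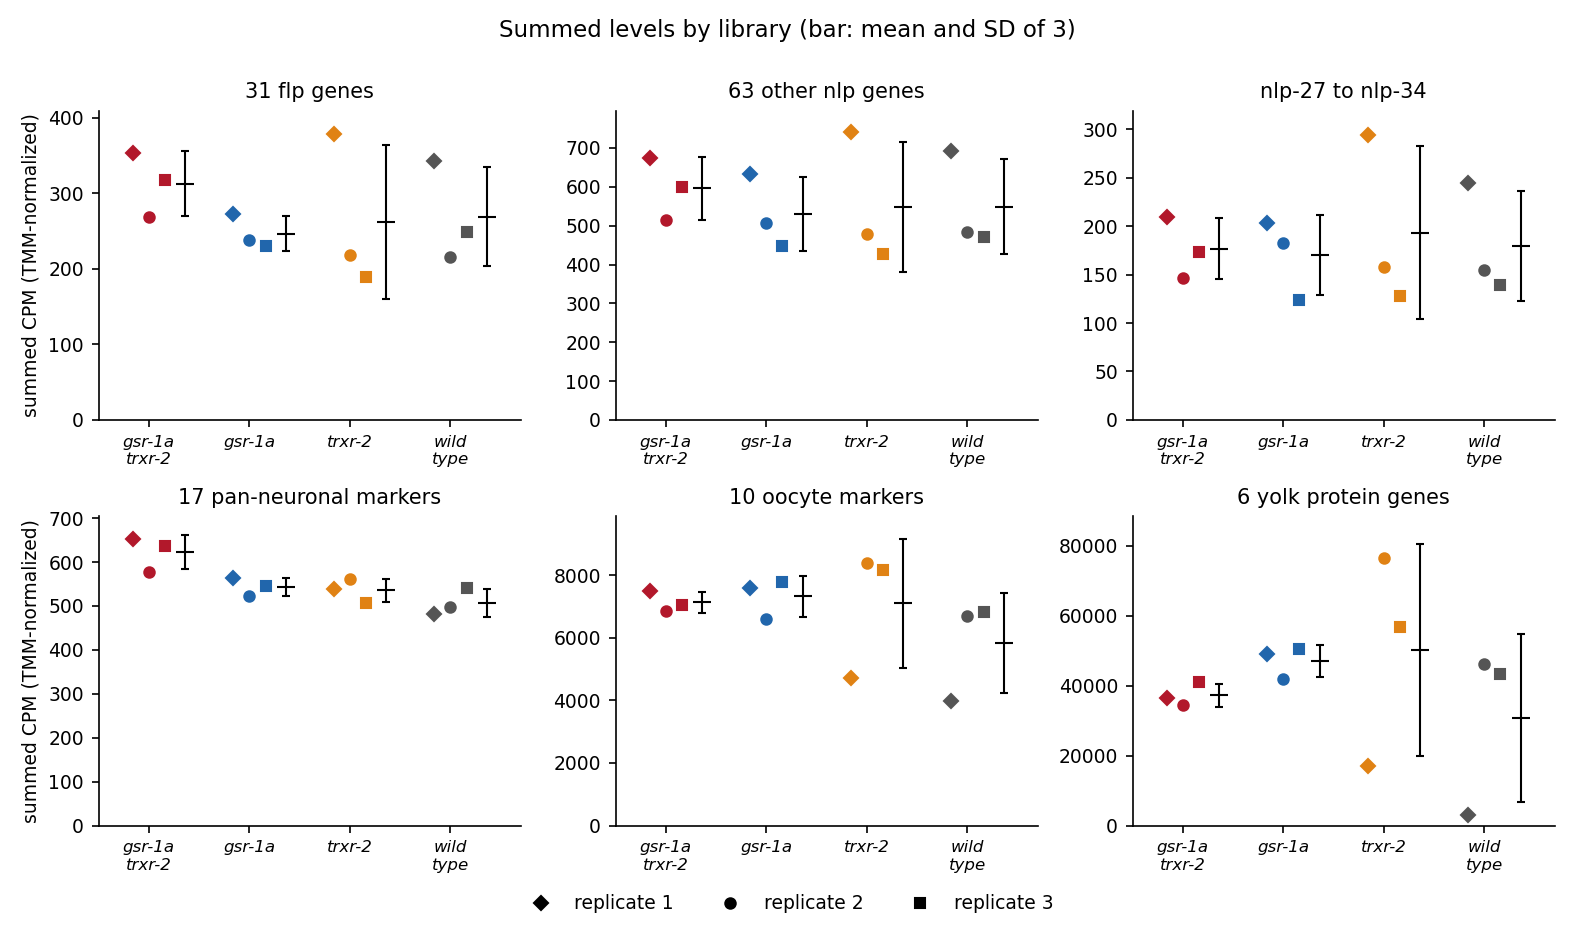
Summed TMM-normalized CPM (y axes, from 0) of the *flp* genes, the other *nlp* genes, *nlp-27* to *nlp-34* and 3 marker lists in each library, by strain (x axes). Points are libraries with a shape for each replicate number, and the bar to the right of each strain is the mean and SD of 3; replicate 1 of *trxr-2* and of wild type is high for the neuropeptide genes and low for oocyte markers and yolk protein genes.

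Summed over the *flp* genes, the double mutant had 352.8, 268.2 and 316.9 CPM, *gsr-1a* worms 272.3, 237.4 and 230.1 CPM and *trxr-2* worms 378.7, 218.8 and 188.5 CPM, against 342.0, 215.7 and 249.1 CPM in wild type. The sum over *nlp* genes outside *nlp-27* to *nlp-34* was 674.7, 513.6 and 598.6 CPM in the double mutant, 633.7, 507.2 and 446.9 CPM in *gsr-1a* and 740.1, 478.0 and 428.1 CPM in *trxr-2*, against 691.3, 484.3 and 471.9 CPM in wild type. Both sums overlapped between every mutant strain and wild type. They were highest in *trxr-2* replicate 1, followed by the double mutant and wild-type replicates 1 in changing order.

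Levels per kb of exon compare genes of unlike length only roughly. Reads were counted over whole genes with introns, and the exon lengths came from a later annotation release. The highest level per kb of exon over the 12 libraries was that of *nlp-24* at 263.8 CPM per kb. It encodes peptides described as opioid-like, and its level was 240.8 ± 37.1 CPM per kb in the double mutant and 255.9 ± 57.3 CPM per kb in wild type (SD, n = 3 each). *nlp-27* followed at 260.1, *nlp-36* at 188.6 and *nlp-40* at 178.1 CPM per kb over all libraries. *nlp-40* is known to be made in the intestine and to signal to neurons through the receptor AEX-2 to time defecation. The tissue that its reads came from was not measured here. The differences between *nlp-24* and *nlp-27*, and between *nlp-36* and *nlp-40*, lay within their SD. The highest *flp* levels per kb were those of *flp-14* at 46.3, *flp-28* at 45.5, *flp-24* at 36.0 and *flp-6* at 29.6 CPM per kb, each far below the leading *nlp* genes. *flp-6* is known from the thermosensory AFD neurons and *flp-24* from the sleep-promoting ALA neuron.

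**Figure D2:**
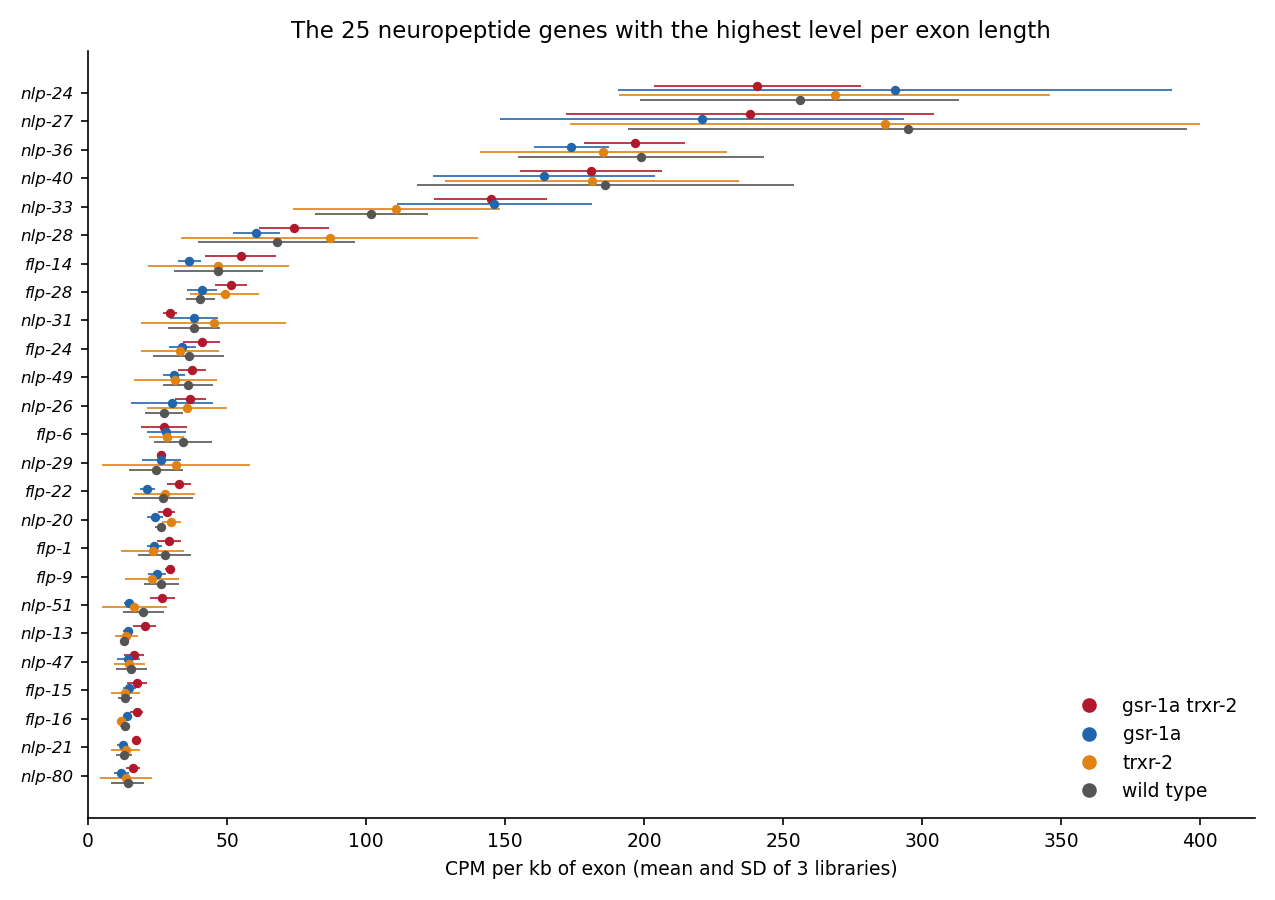
Levels of the 25 neuropeptide genes with the most CPM per kb of exon (x axis, from 0; 1 row per gene). Points are strain means and lines their SD over 3 libraries; *nlp-24*, *nlp-27*, *nlp-36*, *nlp-40*, *nlp-33* and *nlp-28* lie above the *flp* genes in each strain.

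The neuropeptide genes are unevenly placed in the genome. The X chromosome holds 32 of the 102 (31.4%), against 13.6% of protein-coding genes, and 13 of the 31 *flp* genes (41.9%). Of the rest, 21 lie on V, 15 on IV, 13 on II, 12 on III and 9 on I. All 102 are protein-coding. For 6 of them (*flp-17*, *nlp-5*, *nlp-47*, *nlp-62*, *nlp-71* and *nlp-78*) part of the gene overlaps another gene of the same strand, and read pairs in the overlap were not counted.

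In the double mutant against wild type, 3 of the 95 neuropeptide genes tested were higher and 0 lower by edgeR's quasi-likelihood test at a Benjamini-Hochberg adjusted p under 0.05. Over all 15004 genes tested, 12.5% were higher and 6.3% lower; the difference between these shares was not tested. At an unadjusted p under 0.05, 9 were higher and 0 lower, where all genes gave 17.9% and 14.9%. DESeq2 called 5 higher and 0 lower, where it called 13.9% of all genes higher and 9.59% lower. The genes called by edgeR were *nlp-45*, *nlp-4* and *flp-25*, all of low level.

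The *nlp-45* gene (chromosome X, 2337656 to 2338306 in WBcel235) had 1.51, 1.14 and 1.97 CPM in the double mutant, 0.522, 0.796 and 0.639 CPM in *gsr-1a* and 0.601, 0.525 and 0.409 CPM in *trxr-2*, against 0.435, 0.490 and 0.487 CPM in wild type. Each double-mutant library lay above each library of the other strains. The log2 fold change of the double mutant over wild type was 1.68 ± 0.31 (SE, adjusted p = 0.00392). It was called under each of the 19 alternative settings, with log2 fold changes between 1.47 and 1.86. In several of these fits *nlp-45* passed the filter only through the double mutant, so that its calls there are no support. Among them are the filter of more than 1 CPM in 3 libraries and the fit of the 2 strains alone. Without any filter it was called as well (1.67 ± 0.35, adjusted p = 0.00565). These values rest on 6 to 30 counts per library.

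The *nlp-4* gene (chromosome I, 10517324 to 10518055) had 2.63, 2.22 and 2.95 CPM in the double mutant, 2.18, 1.43 and 1.28 CPM in *gsr-1a* and 1.20, 0.591 and 0.614 CPM in *trxr-2*, against 0.653, 0.98 and 1.56 CPM in wild type. The double mutant did not overlap wild type, *gsr-1a* did, and *gsr-1a* replicate 1 came close to the lowest double-mutant library. The log2 fold change was 1.25 ± 0.36 (adjusted p = 0.0308). The call was lost without double-mutant replicate 1 (adjusted p = 0.0737) or 3 (0.102) and without wild-type replicate 1 (0.0951) or 2 (0.0934).

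The *flp-25* gene (chromosome III, 9361528 to 9365380) had 3.42, 2.76 and 2.82 CPM in the double mutant, 1.74, 1.70 and 1.97 CPM in *gsr-1a* and 2.71, 2.10 and 1.91 CPM in *trxr-2*, against 1.81, 1.58 and 2.0 CPM in wild type. All 3 double-mutant libraries lay above the rest, by little over *trxr-2* replicate 1. The log2 fold change was 0.73 ± 0.22 (adjusted p = 0.0359). It was called under 9 of 19 settings, and leaving out any one library of the double mutant or of wild type ended the call, with adjusted p between 0.0523 and 0.120; so did leaving out *gsr-1a* replicate 3 (0.0508).

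A *flp* gene with too few counts to pass the filter showed a similar pattern. *flp-23* (chromosome III, 8650764 to 8652190) had 10, 6 and 15 counts in the double mutant, 0, 7 and 6 counts in *gsr-1a* libraries and 0, 2 and 2 counts in *trxr-2* libraries, against 1, 2 and 2 in wild type. Without the filter its log2 fold change in the double mutant was 2.67 ± 0.79 (adjusted p = 0.0403). The fold depends on very few wild-type counts. In fits with the filter, *flp-23* was tested only where double-mutant replicates 1 and 3 were both kept and another library was left out, so that it passed through the strain in which it is high, and its values there are no support. The other 6 genes below the filter were *nlp-22*, *nlp-23*, *nlp-32*, *nlp-39*, *nlp-46* and *nlp-60*. None was called when tested without the filter, and none had more than 13 counts in a library. *nlp-39* had 13 counts in *trxr-2* replicate 1 and at most 4 in any other library. *nlp-22*, known as a sleep peptide of the RIA neurons, had at most 2.

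**Figure D3:**
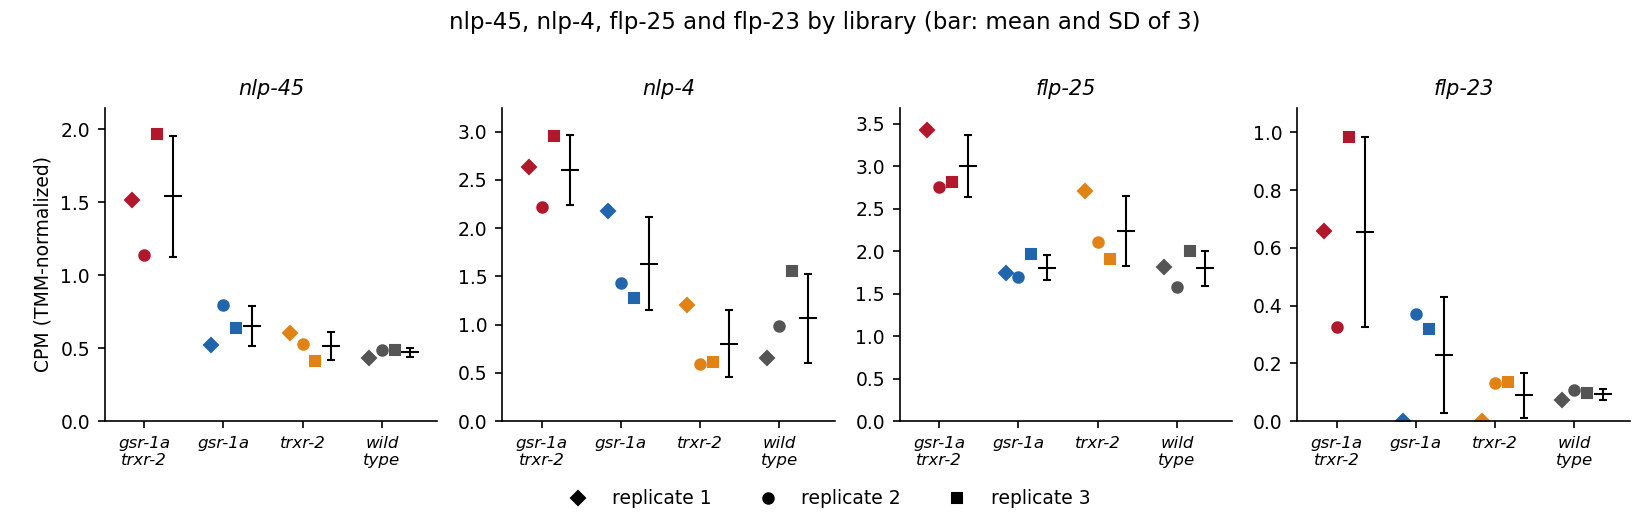
TMM-normalized CPM (y axes, from 0) of *nlp-45*, *nlp-4*, *flp-25* and *flp-23* in each library, by strain (x axes). Points are libraries with a shape for each replicate number and bars give the mean and SD of 3; the double mutant lies above wild type without overlap for *nlp-45*, *nlp-4* and *flp-25*, and for *flp-23* on few counts.

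Beyond these calls, most neuropeptide genes had a log2 fold change above 0 in the double mutant without passing the test. The log2 fold change was above 0 for 80 of the 95 (84.2%), against 52.0% of all genes tested, and its median was 0.27, against 0.03 for all genes. By group, 28 of 30 *flp* genes lay above 0 (median 0.31), 47 of 58 *nlp* genes outside the epidermal range (median 0.24) and 5 of 7 epidermal genes (median 0.11). The median standard error of a single neuropeptide gene was 0.31, as large as the median change. It does not measure the spread of a median over 95 genes, and the shift of the 95 as a set was not tested. For 20 of the 95, each double-mutant library lay above each wild-type library and for 0 below, where all genes tested gave 23.9% and 21.6%. The median moved with the libraries used: it was 0.48 without wild-type replicate 1, 0.15 without wild-type replicate 2, and 0.37 without the 4 libraries numbered 1. Without double-mutant replicate 1 it was 0.19 (73 of 95 above 0), and without double-mutant replicate 2 it was 0.35. The epidermal median was 0.48 (6 of 7 above 0) without wild-type replicate 1 and -0.14 (2 of 7) without wild-type replicate 3.

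**Figure D4:**
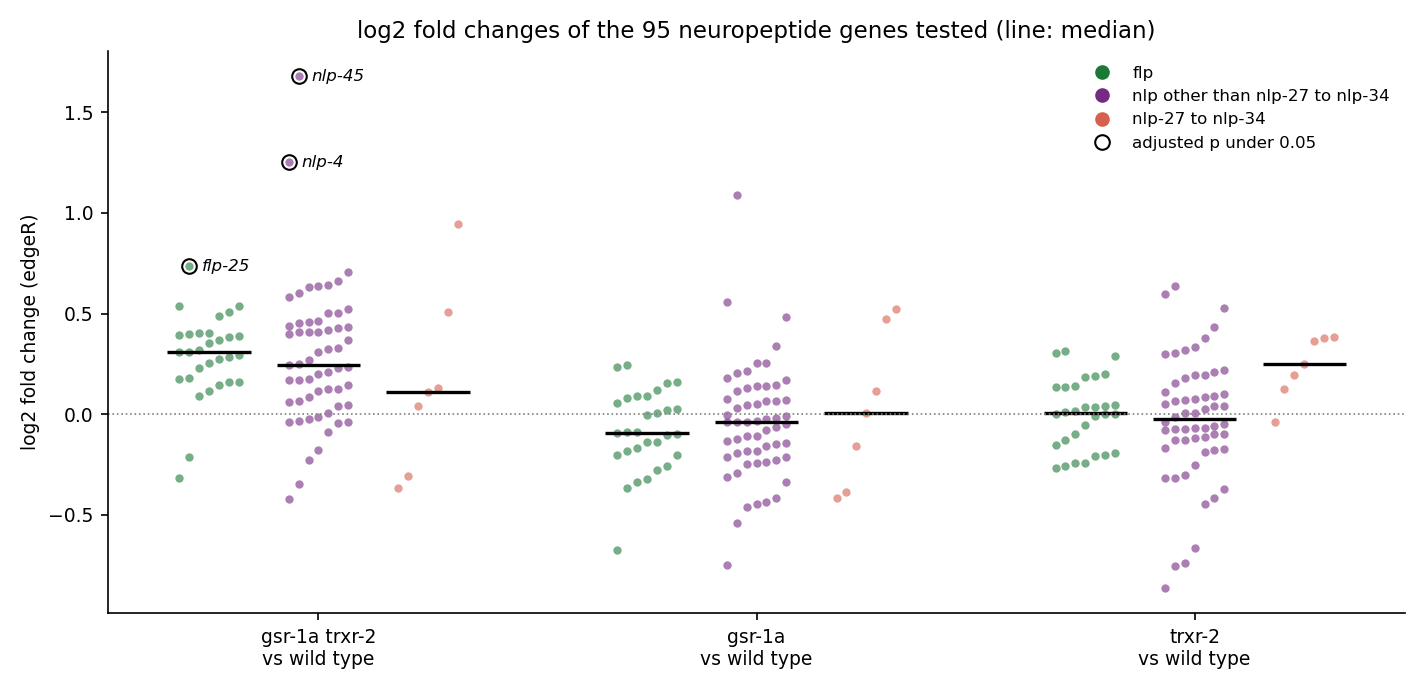
log2 fold changes (y axis) of the 95 neuropeptide genes tested, in the double mutant, *gsr-1a* and *trxr-2*, each over wild type (x axis). Each point is a gene, coloured by group, black lines are medians and open circles mark an adjusted p under 0.05; in the double mutant most points lie above 0 and *nlp-45*, *nlp-4* and *flp-25* are marked, and none is marked in the single mutants.

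Of the peptides tied to mitochondrial or oxidative stress signalling, *flp-2*, which takes part in signalling of mitochondrial stress from neurons to gut, had 5.66, 3.79 and 3.87 CPM in the double mutant, against 3.92, 2.61 and 2.87 CPM in wild type. The groups overlapped (log2 fold change 0.51 ± 0.31, adjusted p = 0.277). *flp-1*, a peptide of the AVK neurons that limits locomotion and has been linked to intestinal antioxidant responses, had 23.6, 18.1 and 18.8 CPM in the double mutant, against 25.9, 12.7 and 18.2 CPM in wild type (log2 fold change 0.09 ± 0.32, adjusted p = 0.865). *flp-7*, which regulates fat loss in the intestine through NPR-22, differed by 0.49 ± 0.29 (adjusted p = 0.269). None of these passed the test under any of the 19 settings.

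Among the sleep peptides, *flp-11*, the main sleep-inducing peptide of the RIS neuron, had 13.2, 7.74 and 7.74 CPM in the double mutant, against 8.12, 5.88 and 7.75 CPM in wild type (log2 fold change 0.40 ± 0.27, adjusted p = 0.333). For the peptides by which the ALA neuron brings on sleep after cellular stress, the log2 fold change was 0.37 ± 0.37 for *flp-13* (adjusted p = 0.516), 0.18 ± 0.29 for *flp-24* (0.709) and 0.46 ± 0.19 for *nlp-8* (0.124). Each double-mutant library of *nlp-8* lay above each wild-type library, with 9.34, 8.99 and 9.70 CPM against 7.03, 5.83 and 7.55 CPM. *flp-11*, *flp-13*, *flp-24* and *nlp-8* were not called under any setting.

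Among genes of egg laying and locomotion, *flp-18*, a ligand of NPR-1 and other receptors made in locomotion command neurons, differed by 0.32 ± 0.36 (adjusted p = 0.565) and *nlp-12*, the cholecystokinin-like peptide of the stretch-sensing DVA neuron, by 0.45 ± 0.30 (adjusted p = 0.322). *flp-10* and *flp-17*, ligands of the egg-laying receptor EGL-6, differed by -0.21 ± 0.23 and 0.15 ± 0.28, and *nlp-3* and *nlp-7*, which act on the egg-laying circuit, by 0.31 ± 0.23 and 0.41 ± 0.24 (adjusted p = 0.261 for *nlp-7*, the lowest of these). The orcokinin gene *nlp-14* had 14.8, 11.4 and 13.6 CPM in the double mutant, against 9.06, 8.55 and 9.99 CPM in wild type, with no overlap. Its log2 fold change was 0.52 ± 0.19 (adjusted p = 0.0717), and *nlp-13* was close to it at 0.64 ± 0.23 (adjusted p = 0.0678); DESeq2 called both. *nlp-1*, a peptide of the olfactory AWC neurons, had 6.71, 4.98 and 4.72 CPM in the double mutant, against 4.86, 2.40 and 2.87 CPM in wild type (0.71 ± 0.35, adjusted p = 0.182). These genes, apart from *flp-18* and *nlp-12*, were picked for description after their values were known.

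None of the most abundant neuropeptide genes was called with all libraries. *nlp-40* had 146, 110 and 132 CPM in the double mutant, 150, 98.0 and 103.7 CPM in *gsr-1a* and 173, 105 and 111 CPM in *trxr-2*, against 188, 111 and 99.4 CPM in wild type. *nlp-36* had 76.6, 65.7 and 65.3 CPM in the double mutant, against 87.9, 61.9 and 60.1 CPM in wild type. The log2 fold changes of the double mutant were -0.04 ± 0.27 for *nlp-40*, -0.02 ± 0.18 for *nlp-36*, -0.09 ± 0.28 for *nlp-24*, 0.35 ± 0.18 for *flp-28*, 0.23 ± 0.34 for *flp-14*, -0.32 ± 0.28 for *flp-6* and 0.06 ± 0.30 for *nlp-49*, whose peptides activate the receptor SEB-3. The lowest adjusted p of these was 0.197, for *flp-28*.

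When the 4 libraries numbered 1 were left out, 9 neuropeptide genes were higher in the double mutant and 0 lower, where all genes gave 13.9% and 11.6%. They were *flp-22*, *flp-28*, *nlp-1*, *nlp-4*, *nlp-7*, *nlp-43*, *nlp-45*, *nlp-51* and *nlp-58*; *flp-25* was not among them. *nlp-51* had 12.7, 9.04 and 12.1 CPM in the double mutant, 7.14, 5.63 and 5.96 CPM in *gsr-1a* and 12.6, 4.53 and 3.89 CPM in *trxr-2*, against 11.97, 6.70 and 6.43 CPM in wild type. Its replicates 1 in *trxr-2* and wild type were at the level of the double mutant and the other replicates of these strains were not. Its log2 fold change was 0.44 ± 0.39 (adjusted p = 0.470) in all 12 libraries and 0.67 ± 0.19 (adjusted p = 0.0337) without those numbered 1.

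Neither single mutation gave a call among the neuropeptide genes. In *gsr-1a* against wild type 0 of 95 were higher and 0 lower, where all genes gave 0.0267% in either direction and 0.00666% lower. DESeq2 called 0 as well (0.173% of all genes higher and 0.1% lower), and at an unadjusted p under 0.05 there were 0 in either direction, where all genes gave 4.63% higher and 3.63% lower. The median log2 fold change was -0.05 and 38 of 95 were above 0. The direction turned with the libraries used: the median was 0.12 (69 of 96 above 0) without wild-type replicate 1, 0.01 (51 of 96) without *gsr-1a* replicate 3, 0.04 (54 of 95) without the 4 libraries numbered 1, and -0.20 (28 of 96) without wild-type replicate 2. *nlp-45* and *nlp-81* were higher, and *flp-10*, *nlp-35* and *nlp-56* lower, in each *gsr-1a* library than in each wild-type library, where all genes tested gave 8.78% higher and 7.9% lower. The largest change was that of *nlp-81*, with 0.958, 1.01 and 0.746 CPM in *gsr-1a*, against 0.508, 0.272 and 0.487 CPM in wild type (1.09 ± 0.65, adjusted p = 0.67), on few counts.

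In *trxr-2* against wild type 0 of 95 were higher and 0 lower as well, where all genes gave 0.0666% in either direction. DESeq2 called 0 (0.0866% of all genes higher and 0.0533% lower), and at an unadjusted p under 0.05 there were 0, where all genes gave 1.37% higher and 4.47% lower. *nlp-20* was higher and *nlp-101* lower in each *trxr-2* library than in each wild-type library, where all genes gave 3.03% and 8.64%. The median log2 fold change was 0.00 and 50 of 95 were above 0. That balance changed with the libraries used, with 0 called each time. Without *trxr-2* replicate 1, 13 of 96 were above 0 (median -0.32), and without *trxr-2* replicate 3, 75 of 96 (median 0.21). Without wild-type replicate 1, 74 of 96 were above 0 (median 0.19), and without wild-type replicate 2, 33 of 96 (median -0.09). Without the 4 libraries numbered 1 the median was -0.11. The 3 strain comparisons share the same wild-type libraries.

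The interaction asks whether the double mutant differs from what the changes of both single mutants add up to on the log2 scale. It was called for 0 of the 95 neuropeptide genes by edgeR, where all genes gave 0.766% in either direction, and for 0 by DESeq2, where all genes gave 2.41% higher and 0.227% lower. It was past an unadjusted p under 0.05 by edgeR for 4 higher (9.47% of all genes) and 0 lower (1.63%). The median interaction was 0.32, against 0.02 for all genes, and 80 of 95 were above 0. The median was 0.65 (92 of 96 above 0) without *trxr-2* replicate 1, 0.16 (63 of 96) without *trxr-2* replicate 3 and 0.13 (64 of 96) without wild-type replicate 1. *nlp-45* had an interaction of 1.09 ± 0.46 (adjusted p = 0.403) and *nlp-4* one of 1.14 ± 0.53 (adjusted p = 0.461). That *nlp-45* and *nlp-4* passed the test in the double mutant and not in the single mutants is thus not shown to be a difference beyond adding up. *nlp-51* had an interaction of 1.11 ± 0.56 (adjusted p = 0.530), which became 1.83 ± 0.39 (adjusted p = 0.0496) without *trxr-2* replicate 1 and 1.47 ± 0.28 (adjusted p = 0.0381) without the 4 libraries numbered 1, where all genes gave 1.95% higher.

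Of the epidermal peptide genes, *nlp-27* to *nlp-31* and *nlp-34* lie together on chromosome V between 3978836 and 3989770, *nlp-33* lies at 11147336 to 11147737 on the same chromosome, and *nlp-32* is on chromosome III. *nlp-29* and its neighbours are induced in the epidermis by fungal infection, wounding and osmotic stress. In these worms the 8 genes summed to 209.5, 146.8 and 173.5 CPM in the double mutant, 203.7, 182.1 and 124.1 CPM in *gsr-1a* and 294.4, 157.3 and 127.6 CPM in *trxr-2*, against 244.4, 155.2 and 139.6 CPM in wild type. The strains overlapped, and 0 of the 7 genes tested was called in any comparison under any setting. *nlp-32* had 1 count in 1 wild-type library and 0 in the other 11.

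*nlp-29* itself had 9.67, 9.15 and 9.05 CPM in the double mutant, 11.8, 9.5 and 6.82 CPM in *gsr-1a* and 22.03, 6.70 and 4.98 CPM in *trxr-2*, against 12.4, 8.0 and 5.55 CPM in wild type. The double-mutant libraries lay close together inside the wild-type range (log2 fold change 0.11 ± 0.47, adjusted p = 0.892). *nlp-33* had 56.4, 42.5 and 50.6 CPM in the double mutant, 54.2, 59.9 and 36.8 CPM in *gsr-1a* and 51.6, 36.7 and 26.1 CPM in *trxr-2*, against 43.1, 30.5 and 31.5 CPM in wild type, and the lowest double-mutant library fell just below the highest wild-type one (0.51 ± 0.25, adjusted p = 0.178). *nlp-30* was higher in each double-mutant library, with 2.10, 3.19 and 2.03 CPM against 1.81, 1.14 and 0.926 CPM in wild type (0.94 ± 0.59, adjusted p = 0.292). The log2 fold change was 0.13 ± 0.38 for *nlp-28*, 0.04 ± 0.56 for *nlp-34*, -0.31 ± 0.33 for *nlp-27* and -0.37 ± 0.33 for *nlp-31*. Replicate 1 was the highest library for 7 of these 7 genes in both *trxr-2* and wild type.

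**Figure D5:**
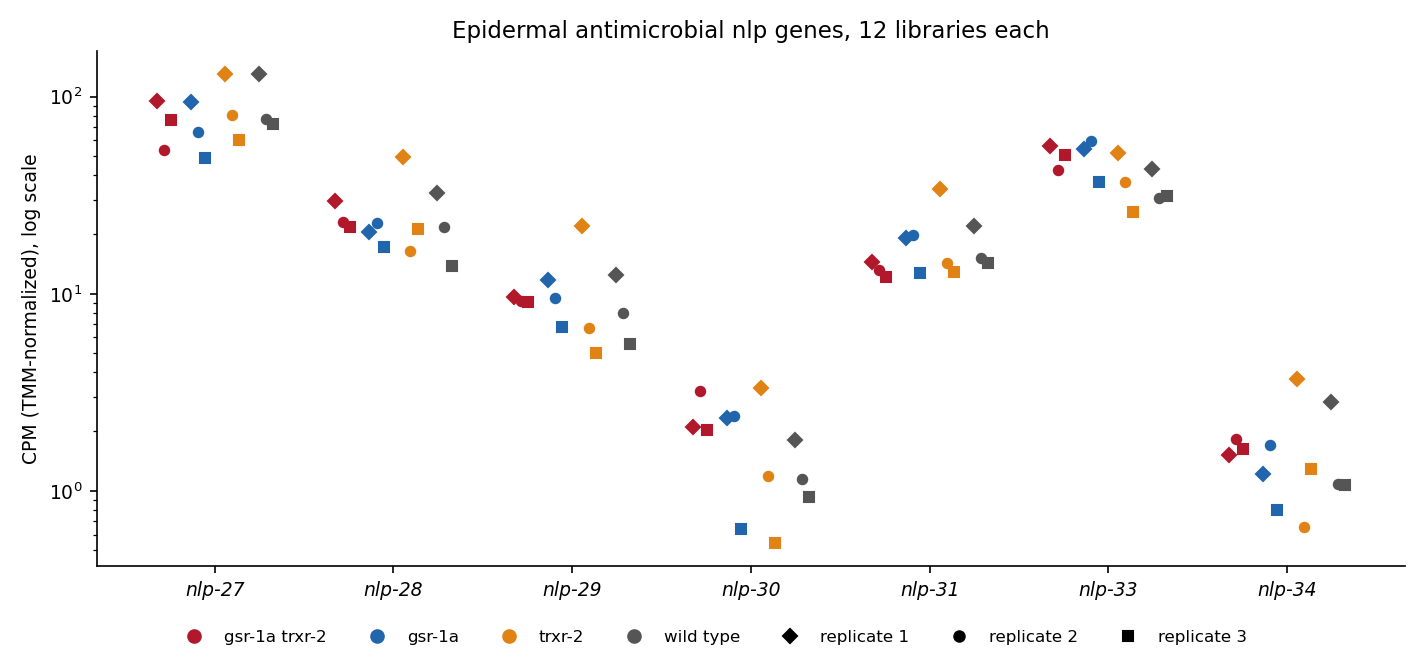
TMM-normalized CPM (y axis, log scale) of the 7 epidermal *nlp* genes tested, with 12 libraries per gene (x axis). Colours are strains and shapes replicate numbers; the strains overlap for most genes and the replicates 1 of *trxr-2* and wild type are the highest of their strain.

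The genes that control the epidermal peptides, and their companions, gave few calls, where all genes gave 12.5% higher and 6.3% lower. Of 14 regulators of the antimicrobial response, 0 were higher and 1 lower in the double mutant: *pmk-1*, the p38 MAP kinase of innate immunity, had 19.01, 19.3 and 17.4 CPM in the double mutant, against 27.1, 24.7 and 25.2 CPM in wild type (-0.47 ± 0.13, adjusted p = 0.0305). Its call was kept under 12 of 19 settings and lost without any one library of the double mutant or wild type, with adjusted p up to 0.127. Of the 6 caenacin genes tested, which encode related antimicrobial peptides, 0 were higher and 1 lower (*cnc-7*, -2.37 ± 0.70, adjusted p = 0.0345). That call was kept under 13 of 19 settings. It was lost without any one double-mutant library, without wild-type replicate 1 or 2, and without the 4 libraries numbered 1. Of 10 osmotic stress and furrow collagen genes 0 were higher and 1 lower: *dpy-10*, a cuticle collagen gene whose loss is known to raise *nlp-29*, had 11.9, 8.99 and 9.44 CPM in the double mutant, against 19.1, 25.3 and 25.1 CPM in wild type (-1.20 ± 0.28, adjusted p = 0.0115), and was called under each of the 19 settings. The median log2 fold change was 0.23 over the regulators, -0.27 over the caenacins and -0.06 over the osmotic stress genes. Of 13 epidermis and adult cuticle markers 2 were higher and 0 lower (*rol-6* and *dpy-13*, median of the list 0.13), and both calls were lost without double-mutant replicate 2 or 3 or any one wild-type library.

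Among the genes that make and release neuropeptides, 2 of 11 processing and amidation enzymes were higher in the double mutant and 0 lower, with a median log2 fold change of 0.30, where all genes gave 12.5% higher and 6.3% lower (median 0.03). *egl-3*, the main proprotein convertase of neurons, had 90.7, 68.1 and 86.0 CPM in the double mutant, against 20.1, 39.9 and 58.9 CPM in wild type (1.04 ± 0.30, adjusted p = 0.0308), and *pghm-1*, an amidating enzyme, differed by 0.72 ± 0.21 (adjusted p = 0.0333). Both were called under 15 of 19 settings; *egl-3* lost its call without double-mutant replicate 1 or 3 or wild-type replicate 2, and *pghm-1* without these or wild-type replicate 1, with adjusted p up to 0.108. *egl-21*, the carboxypeptidase that acts after EGL-3, differed by 0.41 ± 0.15 (adjusted p = 0.083), and *sbt-1*, the chaperone of EGL-3, by 0.30 ± 0.26. Of 13 genes of dense core vesicle formation and release, 2 were higher and 0 lower (median 0.32), and the list summed to 530.1, 510.6 and 521.5 CPM in the double mutant, against 546.3, 523.8 and 535.0 CPM in wild type, overlapping. *tbc-8*, a Rab GTPase-activating protein of dense core vesicle maturation, had 5.66, 6.01 and 6.56 CPM in the double mutant, against 3.05, 3.7 and 4.04 CPM in wild type (0.75 ± 0.18, adjusted p = 0.0141). It was called under 17 of 19 settings, but not without double-mutant replicate 3 or wild-type replicate 1. The vesicle priming factor *unc-13* differed by 0.42 ± 0.12 (adjusted p = 0.0367, called under 10 of 19), and *unc-31*, needed for dense core vesicle release, by 0.57 ± 0.21 (adjusted p = 0.076).

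Of 107 receptor genes counted, 77 could be tested, and 5 were higher and 1 lower in the double mutant, with a median log2 fold change of 0.23. All genes gave 12.5% higher and 6.3% lower, with a median of 0.03. The receptor gene *dmsr-2*, of a family related to the *Drosophila* myosuppressin receptors, had 6.58, 6.66 and 6.29 CPM in the double mutant, 2.96, 3.34 and 2.66 CPM in *gsr-1a* and 2.56, 3.81 and 2.32 CPM in *trxr-2*, against 2.47, 2.12 and 3.80 CPM in wild type. The double mutant lay above every other library (1.21 ± 0.25, adjusted p = 0.00744), and *dmsr-2* was the one receptor gene of these 6 called under each of the 19 settings. *npr-33* (1.71 ± 0.42, adjusted p = 0.0152), *sprr-2* (1.07 ± 0.27, adjusted p = 0.0177), *frpr-8* (1.24 ± 0.35, adjusted p = 0.0289) and *npr-34* (1.09 ± 0.33, adjusted p = 0.0402) were also higher, and *frpr-4* was lower (-1.18 ± 0.34, adjusted p = 0.0333). Each of these 5 calls was lost without wild-type replicate 2, among other libraries. Those of *npr-34* and *frpr-4* were also lost without the 4 libraries numbered 1 and without the filter, and DESeq2 did not call *npr-34*. They were kept under 10 of 19 settings for *npr-34* and 11 for *frpr-4*. EGL-6, the receptor of *flp-10* and *flp-17*, had 5.92, 8.28 and 6.10 CPM of its transcript in the double mutant, against 7.54, 6.37 and 6.97 CPM in wild type (-0.04 ± 0.19). The interaction was called for 1 receptor gene, *frpr-1* (2.33 ± 0.45, adjusted p = 0.0385), where all genes gave 0.766% in either direction. It was called under 7 of 18 alternatives. The call was lost when any library but double-mutant replicate 2 or *trxr-2* replicate 1 was left out, and without the 4 libraries numbered 1. *frpr-1* had 2.96, 2.60 and 2.10 CPM in the double mutant, against 1.81, 1.31 and 1.46 CPM in wild type, and its *gsr-1a* and *trxr-2* libraries lay below those of wild type. No gene of the enzyme, vesicle or receptor lists was called in either single mutant.

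The 17 pan-neuronal markers summed to 653.0, 578.4 and 635.7 CPM in the double mutant, 563.2, 521.9 and 545.4 CPM in *gsr-1a* and 537.5, 561.2 and 507.0 CPM in *trxr-2*, against 480.9, 498.5 and 540.9 CPM in wild type, so that the double mutant lay above the other strains without overlap. Of the 17, 3 were higher and 0 lower (*egl-3*, *unc-13* and *rab-3*) and the median log2 fold change was 0.37, where all genes gave 12.5% higher and 6.3% lower (median 0.03). Some genes stand in more than one list: *egl-3* is also counted with the processing enzymes and *unc-13* with the vesicle genes. *egl-21*, *sbt-1* and *unc-31*, described above with neuropeptide processing and release, are among the 17 as well. The pan-neuronal sum is thus not independent of these genes. Of 13 neurotransmitter identity markers 2 were higher and 0 lower (*cat-1* and *unc-25*), with a median of 0.45. This list, unlike the pan-neuronal one, did not sum to more in the double mutant, with 541.3, 492.8 and 532.7 CPM against 656.9, 504.7 and 528.8 CPM in wild type, and the strains overlapped. The calls of *rab-3*, *unc-13*, *cat-1* and *unc-25* were lost without double-mutant replicate 1 or 3 or wild-type replicate 2, among other settings. They were kept under 12 of 19 settings for *rab-3*, 10 for *unc-13*, 7 for *cat-1* and 8 for *unc-25*. That of *cat-1* was also lost without the 4 libraries numbered 1. The 7 neuropeptide genes with other names, such as *pdf-1*, *ntc-1* and *capa-1*, had a median of 0.22 and none was called.

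Among markers of other tissues, all 29 sperm markers tested were higher in the double mutant, with a median log2 fold change of 2.17, and the list summed to 1516, 656.3 and 1363 CPM in the double mutant, against 207.3, 247.0 and 295.2 CPM in wild type. Of 10 intestine markers 5 were higher and 2 lower (median 0.44). None of the 10 oocyte markers (median 0.21), the 9 body wall muscle markers (median 0.97) or the 6 yolk protein genes (median -0.90) was called. All genes gave 12.5% higher and 6.3% lower. Body wall muscle markers summed to 5591, 5421 and 5278 CPM in the double mutant, against 1612, 3639 and 4375 CPM in wild type. The part of these tissue differences in the neuropeptide values was not tested.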

How the data were processed

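The authors deposited raw counts per gene for 12 libraries. Per the file headers, featureCounts 2.0.0 assigned read pairs by strand to the full extent of each Ensembl 97 gene, so intronic reads count, and left out pairs with several map positions or genes. The submitters' processing notes name HISAT2, SAMtools and WBcel235. Symbols were matched for 93.8% of identifiers, and exon lengths came from Ensembl 115 of that build. Counts were normalized by TMM, filtered by edgeR's filterByExpr (edgeR 4.0.16, R 4.3.3) and fitted for 15004 genes in 1 quasi-likelihood model with a mean per strain (8 residual degrees of freedom), tested on simulated data. P-values were adjusted by Benjamini-Hochberg over all 15004 genes. SE is the log2 fold change over the square root of F.

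The neuropeptide genes, lists and tests were chosen with earlier results of these data known. Named genes are *nlp-27* to *nlp-34*, called genes, the 10 most abundant by CPM and per kb, *flp-1*, *flp-11*, *flp-14*, *flp-18*, *nlp-12*, *nlp-40* and up to 4 genes per list by adjusted p; the others were added after their values were seen. Alternatives were DESeq2 1.42.0, RLE size factors, other filters, the replicate number as a block, the compared strains alone and fits without libraries.

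Libraries of the same number deviated together in *gsr-1a* and wild type (correlations 0.13 to 0.23) and in *trxr-2* and wild type (0.27 to 0.54). Unlike numbers did so too: 0.38 for *trxr-2* replicate 2 with wild-type replicate 3, and 0.29 for *trxr-2* replicate 3 with wild-type replicate 2. For *trxr-2* the correlations thus set replicate 1 apart and do not pair replicates 2 and 3 by number. From the data the numbers were taken to pair only *gsr-1a* with wild type. The double mutant and wild type (-0.04, -0.04 and 0.22) were not paired.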

Additional observations from a re-analysis of the deposited data

How the results depend on the processing

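The count of neuropeptide genes higher in the double mutant was 3 as reported, 5 with DESeq2 (13.9% of all genes) and 9 (13.9%) without the 4 libraries numbered 1. It was 1 to 6 with 1 library left out, where all genes gave 7.82% to 14.2% higher. It was 1 without double-mutant replicate 1 or 3 or wild-type replicate 1 or 2, 5 without *trxr-2* replicate 3 and 6 without *trxr-2* replicate 1. The counts without double-mutant replicate 2, any one *gsr-1a* library or any one *trxr-2* library include *flp-23*, which is tested there only through its double-mutant counts. In several of these fits *nlp-45* too passed the filter only through the double mutant. The interaction count was 0 as reported, 1 without the 4 libraries numbered 1, and 0 to 1 with 1 library left out. With the replicate block, 4 were higher in the double mutant (*flp-25*, *nlp-1*, *nlp-4* and *nlp-45*), where all genes gave 13.8%. No call in the single mutants or in the interaction changed. No neuropeptide gene was called lower, or called in a single mutant, under any of the 19 alternatives, and no called value changed sign. The depth limits genes such as *flp-23* and *nlp-45*, which rest on at most 30 counts per library.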
